A study of Homo sapiens
Mus musculus with 2 samples.

Results

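The transcripts of 5 abundant protein chaperones were described in mouse and human lymphocyte lines profiled together by Drop-seq. The genes were the heat-shock protein 70 family member Hspa8, the heat-shock protein 90 genes Hsp90ab1 and Hsp90aa1, and the mitochondrial chaperonin genes Hspd1 and Hspe1, each in the mouse and in the human form. They were chosen by their identifiers, with earlier results of these data known. They gave 10 of the 29259 genes counted in either library, 5 of 14740 mouse genes and 5 of 14519 human genes. The mouse genes carry the identifiers mm10_ENSMUSG00000015656 (Hspa8), mm10_ENSMUSG00000023944 (Hsp90ab1), mm10_ENSMUSG00000021270 (Hsp90aa1), mm10_ENSMUSG00000025980 (Hspd1) and mm10_ENSMUSG00000073676 (Hspe1) in the deposited tables. The human genes are hg19_ENSG00000109971 (HSPA8), hg19_ENSG00000096384 (HSP90AB1), hg19_ENSG00000080824 (HSP90AA1), hg19_ENSG00000144381 (HSPD1) and hg19_ENSG00000115541 (HSPE1). The prefixes give the genome builds, mm10 and hg19.

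Chaperones bind unfolded or partly folded proteins and help them to reach or keep their working shape. HSPA8 is the constitutive cytosolic member of the HSP70 family, which binds short hydrophobic stretches of newly made proteins in cycles driven by ATP. HSP90 takes over late folding steps of many kinases and receptors, and has a mostly constitutive form, HSP90AB1, and a more stress-inducible form, HSP90AA1. HSPD1 (HSP60) builds the folding chamber of the mitochondrial matrix, and HSPE1 (HSP10) is its lid. All are expressed at high levels in dividing cells such as leukaemia and lymphoma lines.

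The sample was an equal mixture of 4 established lines, for which the labels give no treatment. Jurkat and TALL-104 come from human T cell leukaemias, and the mouse lines were EL4, from a T lymphoma, and IVA12, of B cell origin. The mixture was encapsulated on the Dolomite system at 150 cells/µl in 1 library and at 300 cells/µl in the other. Each concentration therefore had 1 library and no replicate, and differences between the concentrations were not tested.

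A transcript was counted by its unique molecular identifier (UMI), so that PCR copies count once. A cell was a barcode with at least 1000 UMIs, at least 90% of them from 1 species. The mouse cells were split into 2 groups by clusters made without the chaperone genes. The larger is called mouse A and the smaller mouse B, since no table at hand paired the deposited identifiers with gene names. Neither group was assigned to EL4 or IVA12. The identifier planned for the T cell marker Lck, ENSMUSG00000000409, had 143 and 791 UMIs in mouse A at 150 and 300 cells/µl. In mouse B it had 1 and 23. That pairing was not checked, and the other planned markers were not read. Human cells were kept as 1 class, which may hold Jurkat and TALL-104 cells in different shares in each library. At 150 cells/µl there were 50 mouse A, 35 mouse B and 87 human cells, and at 300 cells/µl 389, 296 and 318. The median depth was 10882, 13629 and 6383 UMIs per cell at 150 cells/µl and 7474, 6588 and 3714 at 300 cells/µl. Mixed barcodes of both species, 18 and 121 of them, were left out, and no barcode of at least 1000 UMIs occurred in both libraries.

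The 5 chaperone genes together took more than 1% of all UMIs in every class. Levels are given as CPM, the UMIs of a gene per 1000000 UMIs of the cell's own species, summed over the cells of a class. Each transcript is counted at its 3′ end, so the level does not scale with transcript length, although capture can still differ between genes. Mouse A gave 1.31% of its UMIs to the 5 genes at 150 cells/µl and 1.52% at 300 cells/µl. The share was lower in mouse B, at 1.09% and 1.28%, and human cells had 1.37% and 1.40%. The order of the genes differed between the species in the place of Hspd1. In mouse A it was Hsp90ab1, Hspa8, Hspd1, Hsp90aa1 and Hspe1 in both libraries. In human cells the order was HSP90AB1, HSPD1, HSPA8, HSP90AA1 and HSPE1. In mouse B the order was that of mouse A, with Hsp90ab1 and Hspa8 level at 150 cells/µl. The HSP10 gene was the lowest of the 5 in all 3 classes.

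**Figure D1:**
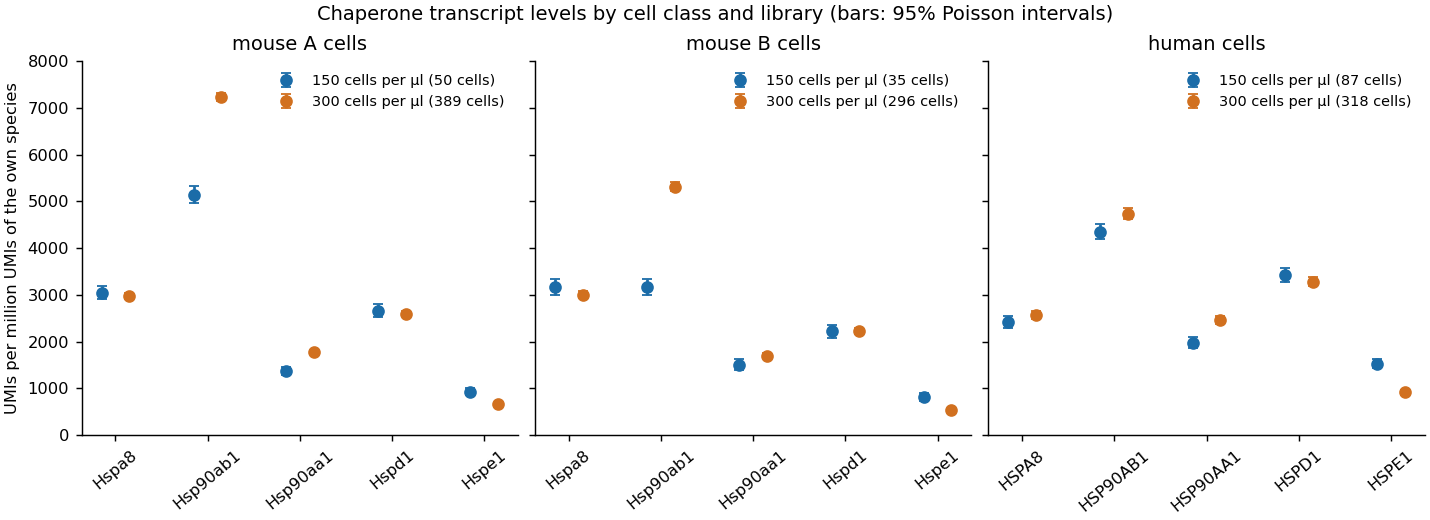
Level of each chaperone gene in CPM (UMIs per 1000000 UMIs of the own species) in mouse A, mouse B and human cells, with 1 point per library and bars for the exact 95% Poisson interval, which covers counting error only. Hsp90ab1 reaches 7229 CPM in mouse A at 300 cells/µl, and Hspe1 is the lowest gene in every panel.

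Hspa8 was about equally abundant in both mouse groups and both libraries. In mouse A it stood at 3044 CPM (95% Poisson interval 2906 to 3187) at 150 cells/µl and at 2973 CPM (2914 to 3034) at 300 cells/µl. In mouse B the level was 3162 CPM (3002 to 3329) and 3002 CPM (2932 to 3073). The 4 intervals overlapped at 3002 to 3034 CPM. Human HSPA8 was lower, at 2417 CPM (2296 to 2543) and 2570 CPM (2484 to 2657), with overlapping intervals. Species were not compared by a test, because their annotations and 3′ ends differ.

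Hsp90ab1 differed both between the mouse groups and between the libraries. Mouse A had 5133 CPM (4953 to 5318) at 150 cells/µl and 7229 CPM (7136 to 7323) at 300 cells/µl. Mouse B had 3166 CPM (3006 to 3333) and 5316 CPM (5223 to 5411). No 2 of these 4 intervals overlapped, except that of mouse A at 150 cells/µl with that of mouse B at 300 cells/µl. In mouse B at 150 cells/µl the gene was level with Hspa8, at a ratio of 1.00 (0.931 to 1.08), whereas in the other 5 combinations of class and library it exceeded Hspa8 by 1.69- to 2.43-fold. Human HSP90AB1 stood at 4347 CPM (4184 to 4515) and 4732 CPM (4615 to 4850).

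Hsp90aa1, the more inducible HSP90 gene, was the fourth most abundant of the 5 in every class. Mouse A had 1367 CPM (1275 to 1464) at 150 cells/µl and 1769 CPM (1723 to 1816) at 300 cells/µl. Mouse B had 1503 CPM (1393 to 1619) and 1691 CPM (1639 to 1745). Human HSP90AA1 was higher, at 1979 CPM (1869 to 2093) and 2464 CPM (2380 to 2550), and at 300 cells/µl its interval overlapped that of HSPA8. The balance of the HSP90 pair differed between the classes. In mouse A, 3.76 (3.48 to 4.06) and 4.09 (3.97 to 4.21) Hsp90ab1 UMIs were counted per Hsp90aa1 UMI. In mouse B the ratio was 2.11 (1.92 to 2.31) at 150 cells/µl and 3.14 (3.03 to 3.26) at 300 cells/µl. In human cells it was 2.20 (2.05 to 2.35) and 1.92 (1.84 to 2.0).

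The mitochondrial pair was most abundant in human cells. HSPD1 reached 3419 CPM (3275 to 3568) at 150 cells/µl and 3274 CPM (3178 to 3373) at 300 cells/µl. In mouse A, Hspd1 stood at 2662 CPM (2533 to 2796) and 2599 CPM (2544 to 2656), and in mouse B at 2217 CPM (2083 to 2358) and 2231 CPM (2170 to 2292). The 2 libraries gave overlapping intervals for this gene in all 3 classes. For every 1 UMI of the mitochondrial pair, mouse A had 2.66 and 3.68 UMIs of the 3 cytosolic genes, mouse B had 2.58 and 3.62, and human cells had 1.77 and 2.33.

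Hspe1 was the 1 member below 1000 CPM in both mouse groups and both libraries. Mouse A had 922 CPM (847 to 1002) at 150 cells/µl and 656 CPM (628 to 684) at 300 cells/µl. Mouse B had 819 CPM (738 to 906) and 532 CPM (503 to 562). Human HSPE1 had 1520 CPM (1424 to 1620) and 911 CPM (860 to 964). The chaperonin subunit Hspd1 therefore outnumbered its partner by 2.89 (2.62 to 3.19) to 1 in mouse A, 2.71 (2.4 to 3.06) in mouse B and 2.25 (2.08 to 2.43) in human cells at 150 cells/µl. At 300 cells/µl the ratios were 3.97 (3.78 to 4.16), 4.19 (3.94 to 4.47) and 3.60 (3.37 to 3.83), and did not overlap those at 150 cells/µl in any class.

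Human HSPD1 and HSPE1 are direct neighbours in the RefSeq annotation (GRCh38.p14, used for gene order only), and HSPE1 shares its position with the read-through gene HSPE1-MOB4. That annotation names 20 pseudogenes of HSPA8, 6 of HSP90AB1, 5 of HSP90AA1, 22 of HSPD1 and 28 of HSPE1. The methods describe a filter for uniquely aligned reads in the quality assessment of the original data. Whether it applied to the deposited counts is not given in the sources used here, so the levels of these genes are uncertain to that extent.

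The study used EL4 and IVA12 to compare gene expression between cell types, and the chaperones were compared here between the mouse groups. Of the 5 genes, 3 were higher in mouse A and 0 in mouse B. Hsp90ab1 was higher by 0.60 ± 0.057 on the log2 scale (± SE, edgeR quasi-likelihood test with the library as a block, adjusted p = 1.04e-24). Hspd1 was higher by 0.28 ± 0.067 (adjusted p = 9.27e-05, same edgeR test) and Hspe1 by 0.28 ± 0.092 (adjusted p = 0.00453, same edgeR test). Hspa8 and Hsp90aa1 did not pass the threshold, with log2 differences of 0.0070 ± 0.064 and 0.016 ± 0.075 and adjusted edgeR p-values of 0.933 and 0.870.

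These calls stood against a background in which 56.8% of the 8928 mouse genes tested were called, 29.1% as higher in mouse A and 27.8% as higher in mouse B. When each gene was tested in groups clustered on genes other than itself, the share was 56.5%. The median absolute log2 difference of all genes was 0.61, and 50.9% of genes differed by more than Hsp90ab1. The number of chaperone genes called was therefore near that of genes at large. The test rests on 4 sums from 2 libraries of the same mixture, with the library as a block. Its p-values set the group difference against a spread between these libraries that edgeR estimates with information shared across genes. That spread may be technical. The p-value of a gene therefore does not measure how alike its own difference was in the 2 libraries. The groups were made from other genes of the same cells.

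The direction of Hsp90ab1 was the same in each library on its own. Mouse A exceeded mouse B by 1.62-fold at 150 cells/µl (log2 0.70, 95% binomial interval 0.61 to 0.79) and by 1.36-fold at 300 cells/µl (0.44, 0.41 to 0.47). The difference was thus larger at 150 cells/µl than counting error allows. Hspd1 was higher by 1.2-fold (0.26, 0.15 to 0.38) and 1.17-fold (0.22, 0.17 to 0.27). For Hspe1 the interval at 150 cells/µl included no difference (0.17, -0.020 to 0.36) and that at 300 cells/µl did not (0.30, 0.20 to 0.40), so the call for this gene rested mainly on the library at 300 cells/µl. Hspe1 also lost its call with DESeq2 (log2 0.25, adjusted p = 0.284). Without the library block none of the 3 genes kept its call, with adjusted edgeR p-values of 0.148 for Hsp90ab1, 0.413 for Hspd1 and 0.497 for Hspe1. Their differences without the block were 0.59, 0.29 and 0.27.

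**Figure D2:**
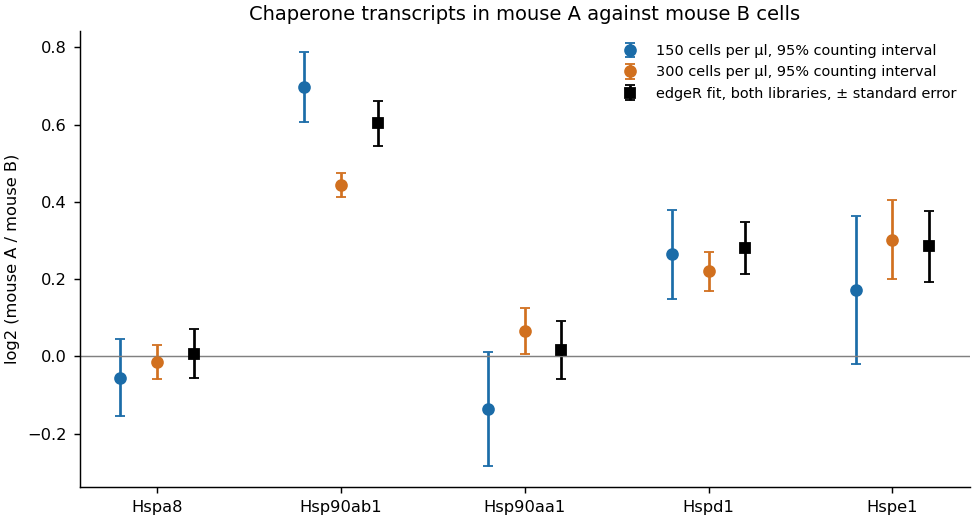
Log2 ratio of mouse A to mouse B for the 5 mouse chaperone genes, in each library (circles, bars are 95% counting intervals) and in the edgeR fit over both (squares, bars are ± 1 standard error). Hsp90ab1 lies between 0.44 and 0.70, the points of Hspd1 and Hspe1 lie above 0, and Hspa8 lies between -0.05 and 0.0070.

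The next comparison set the 300 cells/µl library against the 150 cells/µl library within each class. Hspe1 was lower at 300 cells/µl in all 3 classes. The log2 difference was -0.49 in mouse A (95% binomial interval -0.63 to -0.35), -0.62 in mouse B (-0.79 to -0.45) and -0.74 in human cells (-0.86 to -0.61), or 0.711-, 0.650- and 0.599-fold the level at 150 cells/µl. Few genes were lower by as much. Of the genes with at least 100 UMIs over both libraries, 6.87% of 5472 in mouse A, 5.56% of 4603 in mouse B and 2.24% of 3845 in human cells had a more negative ratio. The shares of genes here and below include genes with far fewer UMIs than the chaperones, whose ratios carry more counting error. They are not shares among genes of like abundance. Hspd1, the partner of Hspe1, differed by -0.03, 0.0087 and -0.06 in the same cells, and all 3 of its intervals included 0.

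The HSP90 genes differed in the opposite direction. Hsp90ab1 was higher at 300 cells/µl by 0.49 in mouse A (0.44 to 0.55) and by 0.75 in mouse B (0.67 to 0.83), and in human cells by 0.12 (0.06 to 0.19). In mouse B, 8.80% of genes had a larger ratio, against 17.96% in mouse A and 44.8% in human cells. Hsp90aa1 was higher by 0.37 in mouse A (0.27 to 0.48), by 0.17 in mouse B (0.05 to 0.29) and by 0.32 in human cells (0.22 to 0.41). Hspa8 differed by -0.03, -0.07 and 0.09.

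The ratio of genes at large was not centred on 0. The median over all genes compared was 0.14 in mouse A, 0.14 in mouse B and 0.08 in human cells. Relative to that median, Hspe1 differed by -0.63, -0.76 and -0.82, Hsp90ab1 by 0.36, 0.61 and 0.04, and Hsp90aa1 by 0.24, 0.03 and 0.24. With TMM scaling, which shifts the classes by 0.12 to 0.14, human HSPA8 and HSP90AB1 changed direction, to -0.04 and -0.0017, and so did Hspd1 in mouse B, from 0.0087 to -0.13. Beyond a limit of 1.25-fold, Hsp90ab1 and Hsp90aa1 were higher at 300 cells/µl in mouse A, where 31.0% of genes were, and Hspe1 was lower, where 12.6% of genes were. In mouse B Hsp90ab1 was above the limit (32.8% of genes) and Hspe1 below it (14.6% of genes). In human cells HSPE1 alone was beyond it, among 12.7% of genes that were lower, against 24.4% that were higher.

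**Figure D3:**
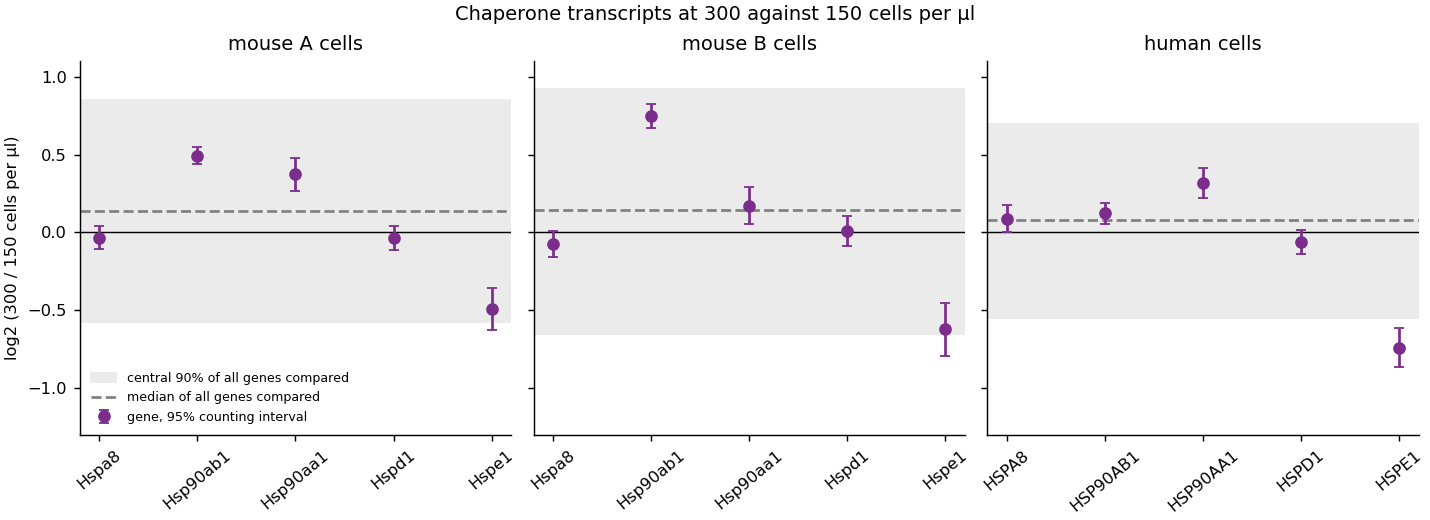
Log2 ratio of the level at 300 cells/µl to that at 150 cells/µl for each chaperone gene in mouse A, mouse B and human cells, with bars for 95% counting intervals. The grey band holds the central 90% of all genes compared and the dashed line their median. Hspe1 lies between -0.49 and -0.74 in the 3 panels, and below the band in human cells.

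Depth and cluster make-up differed between the libraries along with these levels, and their part in the differences was not tested. Levels are given here within ranges of depth and within clusters, as a description. Of the 12 combinations of class and depth range (from 1000, 2000, 5000 and 10000 UMIs upward), Hspe1 was lower at 300 cells/µl in 11. The exception was mouse A cells of 2000 to under 5000 UMIs, of which the 150 cells/µl library held 5. Combinations in which Hspe1 was lower could be as small. In mouse B that library held 5, 3 and 4 cells in the ranges from 1000, 2000 and 5000 UMIs. Hspe1 rested there on 5, 7 and 20 UMIs, and the intervals of the 2 libraries overlapped. Human cells of 1000 to under 2000 UMIs numbered 5, on 6 HSPE1 UMIs, also with overlapping intervals. Hsp90ab1 and Hsp90aa1 were higher at 300 cells/µl in 12 of 12 combinations, although for human HSP90AB1 the smallest difference was 6.36e-05. Such counts were not made for genes at large. The median ratio of those genes was itself above 0, at 0.14 in mouse A, 0.14 in mouse B and 0.08 in human cells. Against it, Hsp90aa1 in mouse B and HSP90AB1 in human cells differed by only 0.03 and 0.04. Hspd1 was lower in 7 and higher in 5.

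Within clusters, Hspe1 was lower at 300 cells/µl in 10 of the 10 clusters that had cells in both libraries, by -0.16 to -1.14 on the log2 scale. Hsp90ab1 was higher in the 6 mouse clusters by 0.44 to 1.39, and in 3 of 4 human clusters, where the range was -0.06 to 0.25. Hsp90aa1 was higher in 9 of 10. Hspd1 was lower in 5 and higher in 5. The counts over clusters were not made for genes at large either. The clusters were filled unequally. Human cluster 4 held 43.7% of the human cells at 150 cells/µl and 5.35% at 300 cells/µl, and human cluster 2 held 12.6% and 40.3%. What else distinguished the 2 libraries cannot be told apart from the loading concentration.

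Within the human cells, HSPA8 ranged from 2250 to 3280 CPM over the 4 clusters at 300 cells/µl. Cluster 3 had 3280 CPM (3064 to 3508) in 53 cells, against 2250 CPM (2101 to 2406) in the 128 cells of cluster 2. At 150 cells/µl cluster 3 had 3964 CPM (3512 to 4459) in 6 cells, and cluster 2 had 1248 CPM (874 to 1727) in 11 cells. HSP90AB1 ranged from 4197 to 5549 CPM over the 4 clusters at 300 cells/µl, with the highest level in cluster 2. Among the mouse B cells, cluster 8 had 9 cells, all at 300 cells/µl. It had 883 CPM of Hspd1 (662 to 1155) and 217 CPM of Hspe1 (115 to 370), below every other mouse cluster, while its Hspa8 level of 3450 CPM was not. Cluster 7 of mouse B was shallow, with a median of 1613 and 1518 UMIs. Its Hsp90ab1 level of 1171 CPM at 150 cells/µl rested on 17 UMIs. These values describe single clusters and were not tested.

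Single cells were then compared at equal depth, after each cell had been thinned once at random to 2000 UMIs. This left 43 and 341 mouse A, 29 and 234 mouse B and 82 and 273 human cells at 150 and 300 cells/µl. Hsp90ab1 was found in all but 1 of these cells over both species. Its mean was 9.65 ± 4.06 UMIs per cell (SD over 43 cells) in mouse A at 150 cells/µl and 14.2 ± 4.55 (341 cells) at 300 cells/µl. Mouse B had 5.93 ± 2.3 (29 cells) and 10.4 ± 4.0 (234 cells), and human cells 9.32 ± 3.96 (82 cells) and 9.67 ± 3.98 (273 cells). The distributions of mouse A and mouse B overlapped in each library.

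Hspe1 was the member most often missed in both mouse groups and, at 300 cells/µl, in human cells. In human cells at 150 cells/µl HSP90AA1 was found in 95.1% (88.0% to 98.7%), just below HSPE1. At 2000 UMIs Hspe1 was found in 69.8% of mouse A cells at 150 cells/µl (exact binomial interval 53.9% to 82.8%) and 71.6% at 300 cells/µl (66.4% to 76.3%). In mouse B the shares were 72.4% (52.8% to 87.3%) and 59.0% (52.4% to 65.3%). In human cells the shares for HSPE1 were 96.3% (89.7% to 99.2%) and 79.5% (74.2% to 84.1%). The intervals of the 2 libraries overlapped in both mouse groups and did not in human cells. Without thinning, Hspe1 was found in 94.0% and 90.7% of mouse A, 94.3% and 84.1% of mouse B, and 96.6% and 85.5% of human cells.

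Hspa8 had the highest ratio of variance to mean over cells. Its variance was 1.84 to 2.44 times its mean over the 6 combinations of class and library, the highest of the 5 genes in each of them. A ratio of 1 is what counting alone would give. The ratio was 0.890 to 1.71 for Hsp90ab1, 1.11 to 1.70 for Hsp90aa1, 1.03 to 1.49 for Hspd1 and 0.878 to 1.59 for Hspe1. In mouse A at 300 cells/µl the thinned Hspa8 count had a median of 6 and reached 22 UMIs per cell.

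**Figure D4:**
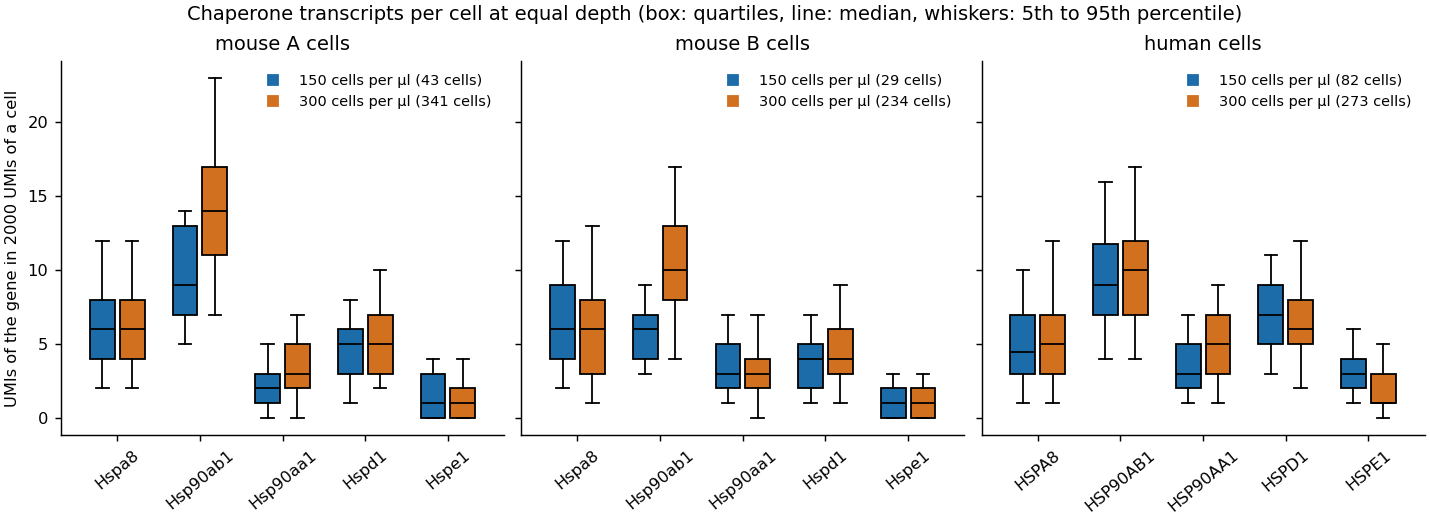
UMIs of each chaperone gene per cell after thinning to 2000 UMIs, by class and library (box for the quartiles, line for the median, whiskers for the 5th to 95th percentile). The Hsp90ab1 boxes of mouse A and mouse B lie higher at 300 than at 150 cells/µl, with medians of 14 and 10 against 9 and 6, and the Hspe1 boxes reach 0 in both mouse groups.

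RNA free in the suspension also gives UMIs of a gene in cells that do not express it, and cells of the other species show how much. At 300 cells/µl, Hsp90ab1 had a UMI in 57.5% of the 318 human cells, against 100% of mouse A and mouse B cells. Hspa8 was seen in 27.0%, Hspd1 in 27.4%, Hsp90aa1 in 21.4% and Hspe1 in 8.81% of these human cells. In the other direction, HSP90AB1 had a UMI in 12.3% of the 685 mouse cells and HSPE1 in 2.19%. All these shares lay far below those in the cells of the gene's own species, so detection in those cells was above this background.

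The share that each mouse chaperone took of the mouse UMIs found in human cells was compared with its share in mouse cells. For Hsp90ab1 the ratio of the shares was 0.949 (0.686 to 1.28) at 150 cells/µl and 1.02 (0.909 to 1.13) at 300 cells/µl, and for Hspe1 at 300 cells/µl it was 0.962 (0.644 to 1.38). Hsp90aa1 had 1.52 (0.965 to 2.28) at 150 cells/µl, on 23 UMIs, and 0.933 (0.741 to 1.16) at 300 cells/µl. Hspa8 was lower at 300 cells/µl, at 0.750 (0.618 to 0.903). The human chaperones were less represented among the human UMIs found in mouse cells at 300 cells/µl. The ratio was 0.582 (0.428 to 0.774) for HSPA8, 0.673 (0.547 to 0.818) for HSP90AB1, 0.559 (0.320 to 0.908) for HSPE1 and 0.768 (0.608 to 0.957) for HSPD1. HSP90AA1 was the exception, at 0.982 (0.773 to 1.23).

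Barcodes below the limit of 1000 UMIs were described as well. The paper reports that TALL-104 cells gave the fewest reads, UMIs and genes, and were easily removed by limits on reads or UMIs. Whether the barcodes below the limit hold such cells was not tested. Human-rich barcodes of 300 to under 1000 UMIs, in which at least 50% of UMIs were human, numbered 51 at 150 cells/µl and 82 at 300 cells/µl. They had 1669 CPM (1163 to 2322) and 1914 CPM (1510 to 2392) of HSPA8, below the 2417 and 2570 CPM of human cells. The interval at 150 cells/µl just overlapped that of human cells and the one at 300 cells/µl did not. Their HSPD1 level was 1860 CPM (1323 to 2543) and 1715 CPM (1334 to 2170), against 3419 and 3274 CPM in human cells, and HSP90AB1 was at 2862 and 3107 CPM. HSPE1 stood at 1288 CPM (849 to 1874) on 27 UMIs and at 522 CPM (323 to 798) on 21 UMIs. It was thus lower at 300 cells/µl in these barcodes too, with intervals that did not overlap. Barcodes of the same depth with under 50% human UMIs had 1558 CPM (1349 to 1790) and 1724 CPM (1559 to 1902) of HSPA8. That is near the HSPA8 level of the human-rich barcodes. Their HSPD1 level was higher than in the human-rich barcodes, at 2505 and 2675 CPM, and HSPE1 stood at 658 and 562 CPM. How far free RNA makes up these levels was not tested. In the 1672 and 2053 barcodes of 200 to 600 UMIs, where mouse UMIs prevailed, mouse Hspe1 was at 677 CPM (600 to 761) and 524 CPM (475 to 577), and Hsp90ab1 at 5133 CPM (4916 to 5356) and 6175 CPM (6004 to 6351). The differences between the libraries in these 2 genes thus had the same direction among shallow barcodes as among cells.

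**Figure D5:**
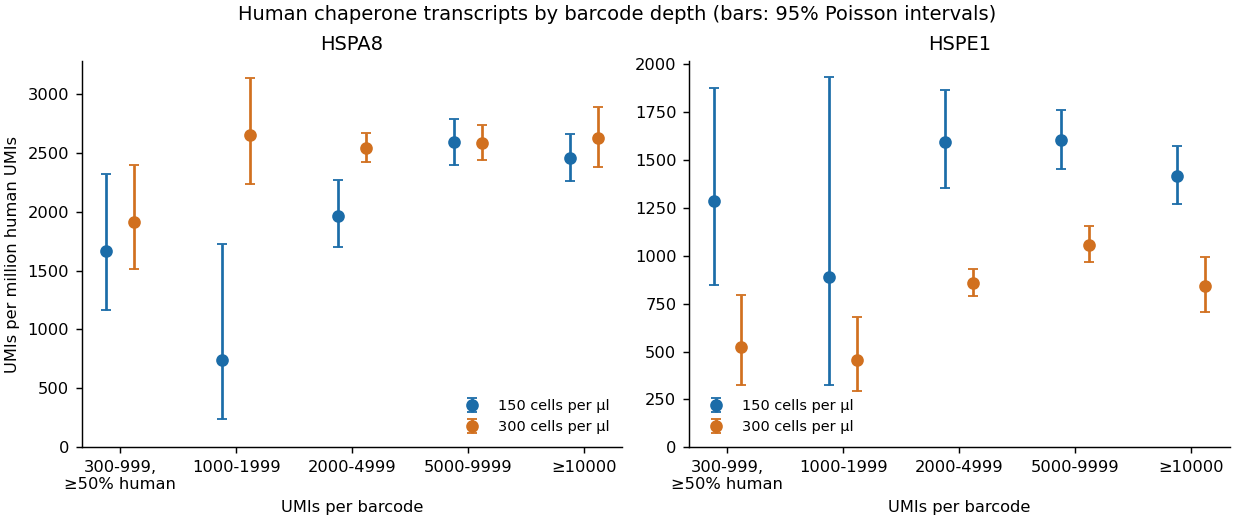
Level of human HSPA8 and HSPE1 in CPM by the number of UMIs per barcode, in human-rich barcodes of 300 to under 1000 UMIs and in human cells of 4 depth ranges, with bars for exact 95% Poisson intervals. From 2000 UMIs upward, HSPE1 at 300 cells/µl (841 to 1058 CPM) lies below HSPE1 at 150 cells/µl (1417 to 1603 CPM), and the bars do not overlap.

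Whether the chaperones rose and fell together from cell to cell was described by Pearson correlations of log2 levels across thinned cells. They were weak at equal depth. Over the 10 pairs in each of the 6 combinations of class and library, r ranged from -0.38 to 0.37. The highest value was that of HSP90AB1 with HSPD1 in 273 human cells at 300 cells/µl, and the same pair had 0.17 in 82 cells at 150 cells/µl. HSP90AB1 with HSP90AA1 gave 0.25 and 0.19 in the same cells. The lowest value, for Hspd1 with Hspe1 in mouse B at 150 cells/µl, came from 29 cells, and the pair had 0.03 in 234 cells at 300 cells/µl. Hspd1 and Hspe1, which encode the same chaperonin, had 0.16 at 150 cells/µl and 0.05 at 300 cells/µl in mouse A, and 0.06 and 0.08 in human cells. Without thinning, with each cell scaled by its own UMIs but depth still varying between cells, r ranged from -0.09 to 0.69. The highest value was then that of Hsp90ab1 with Hspe1 in mouse A at 150 cells/µl, which had 0.34 after thinning, and Hspd1 with Hspe1 in mouse B at 150 cells/µl had 0.42. Thinning discards UMIs, and how far this lowered r was not tested. The cells of a library share its preparation, and in sparse counts such values carry little weight.

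Among all genes found in at least 10% of cells, 1 met the rule of r of at least 0.3 at 300 cells/µl and above 0.2 at 150 cells/µl. It was the mouse gene with the identifier ENSMUSG00000057113, which followed Hsp90ab1 in mouse A with r = 0.34 over 341 cells and 0.23 over 43 cells, out of 3613 genes screened. For the other members of the 3 classes no gene met it.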

How the data were processed

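UMI counts per gene and barcode were deposited by the authors as 1 table per library, not normalized, and are the only unit used. According to the methods and the submitters' processing notes, the reads of each library were downsampled by 1 factor per library, set by its depth per cell, and passed through the Drop-seq tools pipeline, with STAR 2.4.2a as the aligner, against a joint hg19 and mm10 reference from Cell Ranger 1.2.0. Whether the tables hold the downsampled reads is not given in the sources used here. They hold 2398956 UMIs over 2000 barcodes (150 cells/µl) and 8707135 UMIs over 4000 barcodes (300 cells/µl), of which 34.9% and 19.9% are human.

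The genes, lists and tests were chosen with earlier results of these data known. Of the 29259 identifiers, 0 matched the gene name table at hand. For that reason the fixed marker genes apart from Lck, the list of co-chaperones and the mitochondrially encoded genes were not analysed here. The planned marker gate was therefore replaced by clusters made without the 10 chaperone genes. Each cell was scaled to 10000 counts before taking logs, and 2000 variable genes, 15 principal components, 15 neighbours and Leiden resolution 0.5 were used (scanpy 1.11.5, leidenalg 0.10.2, Python 3.11.15). The 8 mouse clusters were joined into 2 groups by average linkage of their summed profiles, a choice made after the clusters were seen. The sign of the first principal component placed 770 of 770 mouse cells alike. Clustering on either of 2 random sets of the genes moved 51 and 1 of them. No doublet caller was run.

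UMIs were summed per library and group (4 sums) and tested with edgeR 4.0.16 (R 4.3.3) by quasi-likelihood with the library as a block, since both groups come from each library, filterByExpr, TMM and Benjamini-Hochberg adjustment over 8928 genes at 0.05. On simulated sums for this comparison over 8928 genes, edgeR recovered 72% of genes changed 2-fold and 35% of those changed 1.5-fold, with 7 false calls. The simulated sums had a common dispersion and no difference between libraries other than their totals, so these rates need not hold for the data. Intervals at 95% are exact Poisson for levels, exact conditional binomial for ratios and exact binomial (Clopper-Pearson) for shares, and cover counting error only. All members are named, with up to 2 genes per member whose correlation across cells was at least 0.3 at 300 cells/µl and above 0.2 at 150 cells/µl, a rule written for EL4-like cells and applied to each class. Alternatives changed the tool (DESeq2 1.42.0), scaling, filter, block, cell definition, species purity and cell weights.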

Additional observations from a re-analysis of the deposited data

How the results depend on the processing

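The libraries can be compared only as single preparations, and the precision at 150 cells/µl is limited by 35 mouse B cells. In each alternative fitted by edgeR or DESeq2, Hsp90ab1, Hspd1 and Hspe1 stayed higher in mouse A. The call for Hspe1 was lost with DESeq2 (log2 0.25, DESeq2 adjusted p = 0.284) and with no filter on low counts (0.19, edgeR adjusted p = 0.0894). Without the library block, edgeR gave 0.59 for Hsp90ab1, 0.29 for Hspd1 and 0.27 for Hspe1, and none passed the threshold (edgeR adjusted p = 0.148, 0.413 and 0.497). With cells thinned at random to 2000 UMIs, Hspd1 (0.29, edgeR adjusted p = 0.157) and Hspe1 (0.31, edgeR adjusted p = 0.201) lost their calls. The cause was not tested. Over each library alone, with TMM and no test, the difference was -0.072 to 0.028 for Hspa8, 0.49 to 0.68 for Hsp90ab1, -0.15 to 0.11 for Hsp90aa1, 0.25 to 0.26 for Hspd1 and 0.15 to 0.34 for Hspe1, and the lower value of Hspe1 is the one without the library at 300 cells/µl. DESeq2 called 1939 genes and thinned cells 1745, against 5074. At an unadjusted p under 0.05 edgeR had 5413 genes. Groups clustered on the other genes, and leaving out clusters of 1 library, both chosen after seeing the data, changed no call of the 5 genes.

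Between 300 and 150 cells/µl, TMM scaling moved 12 of 15 ratios out of their counting interval. It turned the sign of 3, of which Hspd1 in mouse B had an interval that included 0. In mouse A it gave -0.16 for Hspa8, 0.37 for Hsp90ab1, 0.25 for Hsp90aa1 and -0.16 for Hspd1. In mouse B it gave -0.21, 0.61, 0.034 and -0.13 for the same genes. In human cells it gave 0.19 for HSP90AA1 and -0.19 for HSPD1, and the other values that changed sign were -0.036 for HSPA8 and -0.0017 for HSP90AB1. Cells weighted equally, as thinning to 2000 UMIs would on average, gave 0.56 for Hsp90ab1 in mouse A and 0.043 for Hspa8 and 0.12 for Hspd1 in mouse B. A minimum of 2000 UMIs or 95% purity moved 0 of 15. Without thinning, 35 of 60 correlations lay outside the 95% interval of the thinned value, and the range was -0.09 to 0.69. The planned marker gate, the pathway list and a denominator without mitochondrially encoded genes were not run.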
